A study of Mus musculus with 14 samples.

Results

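The 40 genes described here are chemokines and their receptors, chosen by symbol from the 40123 genes of a table of expression in mouse retinal veins. They comprise 17 CC ligands, 11 CXC or CX3C ligands, 8 signalling receptors and 4 atypical receptors. The rule names them by family and symbol, all 40 symbols were found, and a further 23 chemokine and receptor genes lie outside it. The veins came from 9-month-old mice of the inbred strain DBA/2J (9 libraries), which develops raised eye pressure and glaucoma with age, and of DBA/2J-Gpnmb+/SjJ (5 libraries), the normotensive control. The control strain carries a working allele of Gpnmb, a melanosomal glycoprotein gene, on the same background, and both strains carry the Tyrp1 allele of DBA/2J. Mice of both groups were given fluorescein (0.33 mg of the sodium salt per g) 5 minutes before they were killed, and the 4 major veins of 1 mouse with their main branches made 1 library. The labels give no sex and no pressure for any mouse.

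Chemokines are small secreted proteins that direct leukocytes, and they act on receptors that couple to inhibitory G proteins. Endothelium holds them on its surface by heparan sulfate, where they halt rolling leukocytes and start their passage through the wall of venules. Atypical receptors bind chemokines without G protein signalling and move or remove them. ACKR1, the Duffy antigen, is known as a marker of venular endothelium. CX3CR1 is carried by the microglia of the retina.

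Gpnmb checked the labels: it was lower in every DBA/2J library (65.4 to 516 scaled counts) than in any control library (1409 to 3190). Pan-endothelial markers were found in every library, with summed scaled counts of 16436 to 29216 in controls and 13967 to 59055 in DBA/2J. The venous list gave 3998 to 11366 and 3869 to 21486. The dissected veins also held neighbouring tissue, since rod markers summed to 300454 to 670584 in controls and 404483 to 1055300 in DBA/2J. Lens crystallins and membrane genes summed to 1239586 to 2913924 in controls and 66.6 to 178609 in DBA/2J. Estimated depth was 8931959 reads at the lowest and 33786257 at the highest, and the shallowest libraries were DBA/2J samples 1 and 4. A scaled count is an estimated read count divided by a factor for its library, and 1 read was worth 0.546 to 1.84 of them. All control libraries have lower numbers (16 to 30) than all DBA/2J libraries (31 to 39), and library order and strain therefore cannot be told apart.

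To place the ligands in their genome context, promoters of 4 members are shown, each 250 bases before and 50 bases after a RefSeq start site in GRCm38.p6, which is the sequence of C57BL/6J and not of DBA/2J. Cxcl1 and Cxcl2 are neighbours whose proteins attract neutrophils, Cxcl10 is an interferon-induced ligand and Ccl12 is a monocyte attractant of mice. Capitals mark matches to the kappaB motif, the interferon response core (GAAA, any 2 bases, GAAA), the AP-1 site TGANTCA and the TATA box TATAAA.
Cxcl1 promoter (chr5:90890995-90891294, forward strand): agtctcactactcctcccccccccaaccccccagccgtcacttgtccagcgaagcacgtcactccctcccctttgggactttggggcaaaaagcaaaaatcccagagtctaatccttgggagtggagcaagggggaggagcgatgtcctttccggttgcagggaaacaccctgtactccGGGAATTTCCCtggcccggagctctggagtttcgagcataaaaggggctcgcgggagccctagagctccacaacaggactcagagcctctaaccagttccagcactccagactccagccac
Cxcl2 promoter (chr5:90903649-90903948, forward strand): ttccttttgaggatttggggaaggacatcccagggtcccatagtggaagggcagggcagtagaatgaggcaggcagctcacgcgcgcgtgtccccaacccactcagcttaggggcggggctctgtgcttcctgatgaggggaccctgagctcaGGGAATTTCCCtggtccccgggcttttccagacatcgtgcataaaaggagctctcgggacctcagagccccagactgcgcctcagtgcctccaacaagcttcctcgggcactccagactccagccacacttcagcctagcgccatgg
Cxcl10 promoter (chr5:92348840-92349139, reverse strand): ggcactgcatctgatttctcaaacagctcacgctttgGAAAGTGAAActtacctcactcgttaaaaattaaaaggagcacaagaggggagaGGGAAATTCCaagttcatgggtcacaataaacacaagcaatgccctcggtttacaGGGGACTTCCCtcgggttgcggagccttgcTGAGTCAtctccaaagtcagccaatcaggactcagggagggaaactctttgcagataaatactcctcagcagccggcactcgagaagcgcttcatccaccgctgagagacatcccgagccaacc
Ccl12 promoter (chr11:82101595-82101894, forward strand): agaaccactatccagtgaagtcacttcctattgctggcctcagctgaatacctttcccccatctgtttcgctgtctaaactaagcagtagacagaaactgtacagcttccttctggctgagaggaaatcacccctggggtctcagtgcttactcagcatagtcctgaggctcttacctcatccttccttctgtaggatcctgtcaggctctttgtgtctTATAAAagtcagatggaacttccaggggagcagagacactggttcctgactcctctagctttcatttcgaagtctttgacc
In Cxcl1 the kappaB match lay at bases -71 to -61 from the start and in Cxcl2 at -97 to -87, counting overlapping matches on both strands, and the letters GGGAATTTCCC were the same in both. Cxcl10 held kappaB matches at -159 to -150 and -104 to -94, an interferon response core at -213 to -204 and an AP-1 site at -74 to -68. The Ccl12 match was a TATA box at -31 to -26. Of the 40 members, 30 had a promoter in the table, and a few had several start sites, so 33 promoters were searched on both strands (the TATA box on the gene's strand). The kappaB motif was found in 7 of the 33 and in 8.46% of all 32851 promoters, the TATA box in 10 and in 8.32%, the AP-1 site in 5 and in 7.81%, and the interferon core in 3 and in 3.44%. The core of the PU.1 site, GAGGAAGT, was found in 1 and in 3.2%. These matches describe letters in a window and were not tested as binding sites.

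Among the 40 members, 11 rose and 1 fell in DBA/2J (adjusted p below 0.05, limma on log2 of the scaled count + 1, Benjamini-Hochberg over 29166 genes). Over all genes tested, 12.1% were higher and 7.2% were lower. Over coding genes alone, 17.9% were higher and 7.81% lower, against 27.5% and 2.5% of the members. The 40 were chosen with earlier results of these data known, so this difference is not a test of the family. Of the 23 chemokine and receptor genes outside the 40, 16 could be tested, and 6.25% of these were higher and none lower, with a median log2 fold change of 0.171. The median log2 fold change was 0.854 over the members and 0.0472 over all genes. The 11 that rose were the CC ligands Ccl2, Ccl4, Ccl12 and Ccl21a, the CXC and CX3C ligands Cxcl1, Cxcl5, Cxcl16 and Cx3cl1, and the receptors Ccr1, Ccr2 and Cx3cr1. Ccl27a fell. Another 28 did not pass, of which 8 had an unadjusted p under 0.05. Every DBA/2J library exceeded every control library for 2 members, Ccl21a and Cx3cr1, against 2.91% of all genes, and for no member did every DBA/2J library lie below every control, against 2.31% of all genes.

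**Figure D1:**
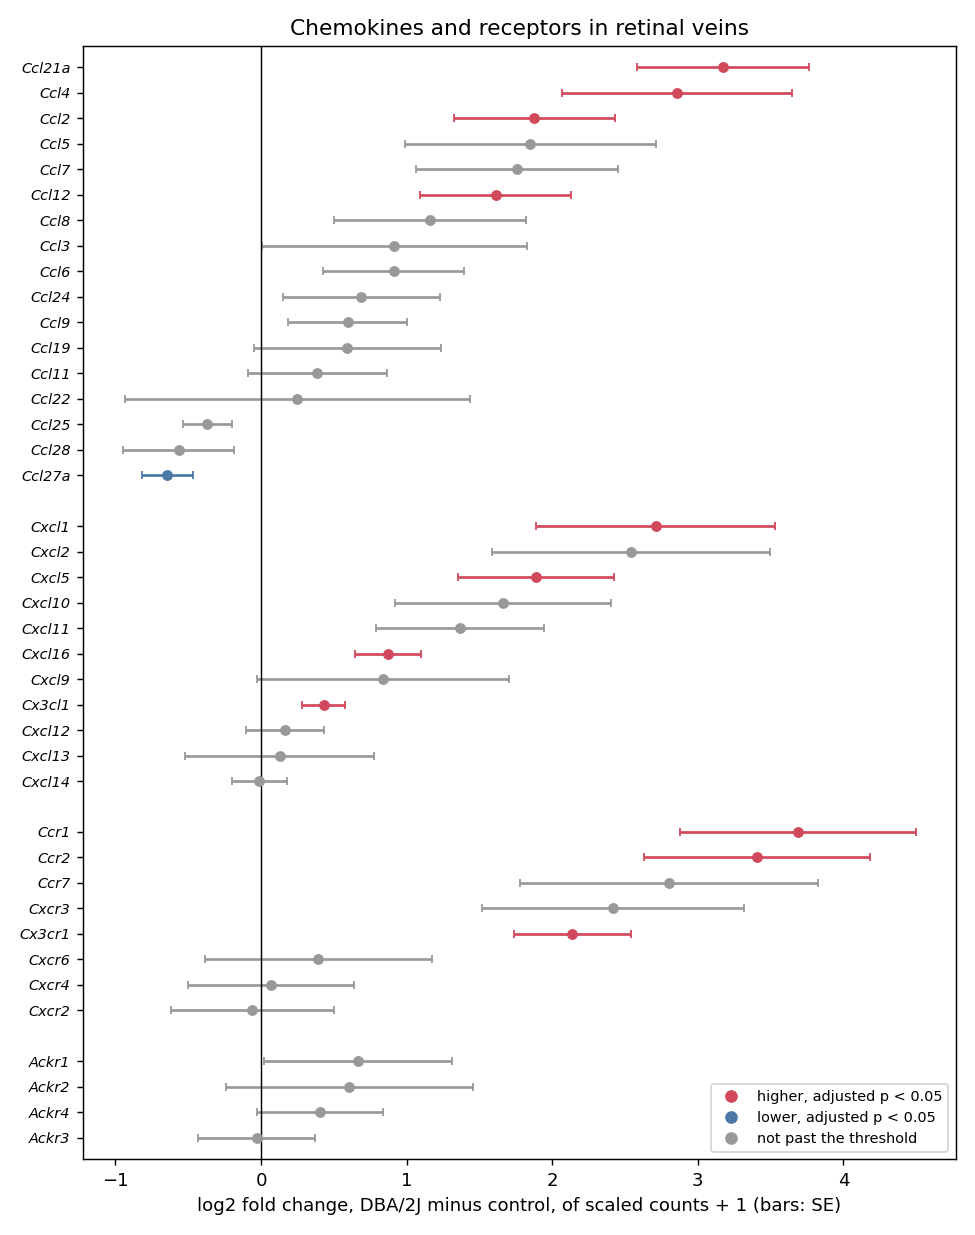
Log2 fold change of each of the 40 members, DBA/2J (n = 9) minus control (n = 5), with points for the limma estimate and bars for its SE, grouped from top to bottom as CC ligands, CXC and CX3C ligands, receptors and atypical receptors. Red points are the 11 higher members, the blue point is Ccl27a and grey points did not pass.

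Markers of leukocytes and of vessel cells were read in the same fit. Of 10 leukocyte markers, 5 were higher and none lower, and their summed scaled counts were 1645 to 3244 in controls and 1450 to 11415 in DBA/2J. Of 11 monocyte and macrophage markers, 4 were higher, with sums of 3479 to 8631 and 2661 to 27015. Of 12 pan-endothelial markers 3 were higher, of 8 venous markers 2 and of 6 pericyte markers 2, with none lower. No marker of these lists was at 0 in all controls. No fit used vessel content as a covariate. With the mean of the leukocyte list as a covariate, 3 members were higher (Ccl21a, Cx3cr1 and Cxcl5) and 2 were lower (Ccl19 and Ccl27a). In that fit 2694 of all 29166 genes were higher and 2518 lower, so the members' shares were no larger than those of all genes. Sex is not given, and with Xist, a transcript of female cells, as the covariate, Ccl2, Ccl4, Ccl12, Cxcl1 and Cx3cl1 no longer passed (adjusted p of 0.0783, 0.0638, 0.117, 0.101 and 0.112). Lens sums did not overlap between the groups, so lens content and strain cannot be told apart. With lens content as the covariate no member passed, and 2 genes were then higher and 10 lower over the whole table. In bulk tissue, a change in the number of cells of a type and a change in RNA per cell cannot be told apart. The source of each chemokine transcript was not tested.

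Among the ligands of CCR2, the receptor that draws monocytes out of blood, Ccl2 stood at 32, 42.4, 47.2, 26.4 and 12.5 scaled counts in control samples 1 to 5. In DBA/2J it ran from 17.7 (sample 4) over a median of 129 to 330 (sample 8), and 8 of 9 libraries were above the highest control. Ccl2 (chromosome 11, 82035571 to 82037453, forward strand, GRCm38) rose by 1.88 on the log2 scale (SE 0.55, adjusted p = 0.0248, limma). The call was lost without control sample 4 or 5 (adjusted p up to 0.0677), with the leukocyte covariate (0.55, adjusted p = 0.459) and with either subset of the controls (adjusted p = 0.162 with samples 1 to 3 and 0.0678 with samples 4 and 5). Ccl12, which lies in the same cluster (82101845 to 82103400), stood at 40, 33.9, 51.7, 31.2 and 21.3 in controls and at 31.9, a median of 173 and 291 in DBA/2J. In 6 DBA/2J libraries Ccl12 exceeded every control, and samples 1, 3 and 4 lay within the control range. It rose by 1.61 (SE 0.52, adjusted p = 0.037), which did not pass in 9 of 14 fits with 1 library removed (adjusted p up to 0.0826), namely without each of control samples 2 to 5 and DBA/2J samples 2 and 6 to 9. Ccl7, a further attractant of monocytes from this cluster, lay between 3.07 and 38.9 in controls and between 6.89 and 167 in DBA/2J, and did not pass.

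Other genes of the chromosome 11 cluster did not pass either. Ccl8 stood at 67.9, 93.3, 103, 51.1 and 26.9 in controls and at 39.6, a median of 110 and 1272 in DBA/2J, where sample 9 was highest (log2 fold change 1.16, SE 0.66, adjusted p = 0.231, limma). Ccl11, eotaxin, which attracts eosinophils, lay between 81.9 and 144 in controls and between 41.5 and 435 in DBA/2J. The groups overlapped for Ccl8 and for Ccl11, with 6 and 5 DBA/2J libraries above every control.

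Ccl4, an inflammatory CC ligand, was low in controls, at 3.72, 11, 3.64, 2.04 and 0 scaled counts. In DBA/2J it ran from 7.78 over a median of 14.6 to 189, with samples 8 and 9 (189 and 153) far above the others, the next being sample 6 at 64.9. Samples 1, 2 and 3 lay within the control range. Ccl4 (chromosome 11, 83662584 to 83664683) rose by 2.86 (SE 0.79, adjusted p = 0.0178), and the adjusted p was 0.051 without control sample 5, the library at 0. Its neighbour Ccl3, a ligand of CCR1, lay between 0 and 17.4 in controls and between 0 and 85.7 in DBA/2J and did not pass. Ccl5, RANTES, lay between 0 and 63.1 in controls and between 16.9 and 462 in DBA/2J. The mouse CCR1 ligands Ccl6 and Ccl9 lay between 68.6 and 161 and between 91.2 and 109 in controls. In DBA/2J they reached 600 (sample 9) and 370 (sample 8), and neither passed.

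CCL19 and CCL21 guide dendritic cells and T cells through CCR7. Ccl21a showed no overlap between the groups: controls stood at 237, 201, 188, 89.9 and 156 scaled counts, and DBA/2J ran from 245 (sample 3) over a median of 1331 to 5524 (sample 8). The ratio of the medians was 7.07, and the log2 fold change 3.17 (SE 0.59, adjusted p = 0.00215, limma). It passed in all 14 fits with 1 library removed (adjusted p up to 0.0097), and with the leukocyte covariate the log2 fold change was 1.71 (adjusted p = 0.0168). The gene lies on the reverse strand of chromosome 4, from 42772860 to 42773993, in a region with near-identical copies. A copy, Ccl21b, was listed at 0 in all controls and had a mean of 0.446 in DBA/2J, and the split of reads among copies is uncertain. Of 5 lymphatic endothelial markers, 1 was higher in DBA/2J, Prox1, and the list summed to 2993 to 4142 in controls and 2933 to 6617 in DBA/2J. Pdpn and Reln had the highest control means of the list (1233 and 1300). Mmrn1 had means of 2.79 in controls and 12.1 in DBA/2J and did not pass. Whether lymphatic endothelium was present was not tested.

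Ccl19, at 42754525 to 42756577 on the same strand, was the most abundant CC ligand per kilobase of transcript, with a mean of 2439 scaled counts per kilobase in controls. It stood at 1558, 956, 4710, 1196 and 1007 scaled counts in controls and at 619, a median of 1450 and 9914 in DBA/2J. The groups overlapped and control sample 3 was above DBA/2J sample 8 (4573), while samples 6, 7 and 9 were above every control. The log2 fold change was 0.59 (SE 0.64, adjusted p = 0.567), and it turned to -0.14 with Xist as a covariate and to -1.18 with the leukocyte mean, where Ccl19 passed as lower (adjusted p = 0.0481).

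Ccl27a, a ligand of CCR10 known from skin, was the 1 member that fell. Controls stood at 870, 948, 1706, 1316 and 944 scaled counts, and DBA/2J ran from 528 over a median of 707 to 1023. In 8 of 9 DBA/2J libraries it was below every control, and sample 8 was the exception. It fell by 0.64 on the log2 scale (SE 0.18, adjusted p = 0.0177, limma). The call was lost without control sample 3 or 4 (adjusted p up to 0.0623) and with scaling to library totals (adjusted p = 0.0794). It was also lost once dependence on GC content and transcript length was taken out (-0.45, adjusted p = 0.0526). Il11ra1, on the opposite strand, overlaps the gene bounds of Ccl27a, introns included, and had means of 1948 and 1588. Whether Ccl27a and Il11ra1 share exon sequence or reads was not tested. Ccl25, a ligand of CCR9, stood at 236, 229, 383, 250 and 267 in controls and at 170, a median of 202 and 274 in DBA/2J (log2 fold change -0.37, SE 0.17, adjusted p = 0.129). Of the DBA/2J libraries, 7 were below every control, and Ccl25 passed as lower after quantile normalization (adjusted p = 0.0391). It overlaps Elavl1 on the opposite strand. Ccl28, another CCR10 ligand, lay between 9.54 and 21.5 in controls and between 3.4 and 17.8 in DBA/2J.

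The remaining CC ligands were near the lower limit of the table. Ccl24, a second eotaxin, lay between 0.616 and 7.09 scaled counts in controls and between 2.32 and 22.9 in DBA/2J. Ccl22, a CCR4 ligand of dendritic cells, lay between 0 and 20.2 in controls, and DBA/2J had a median of 1.53 with 276 in sample 9.

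**Figure D2:**
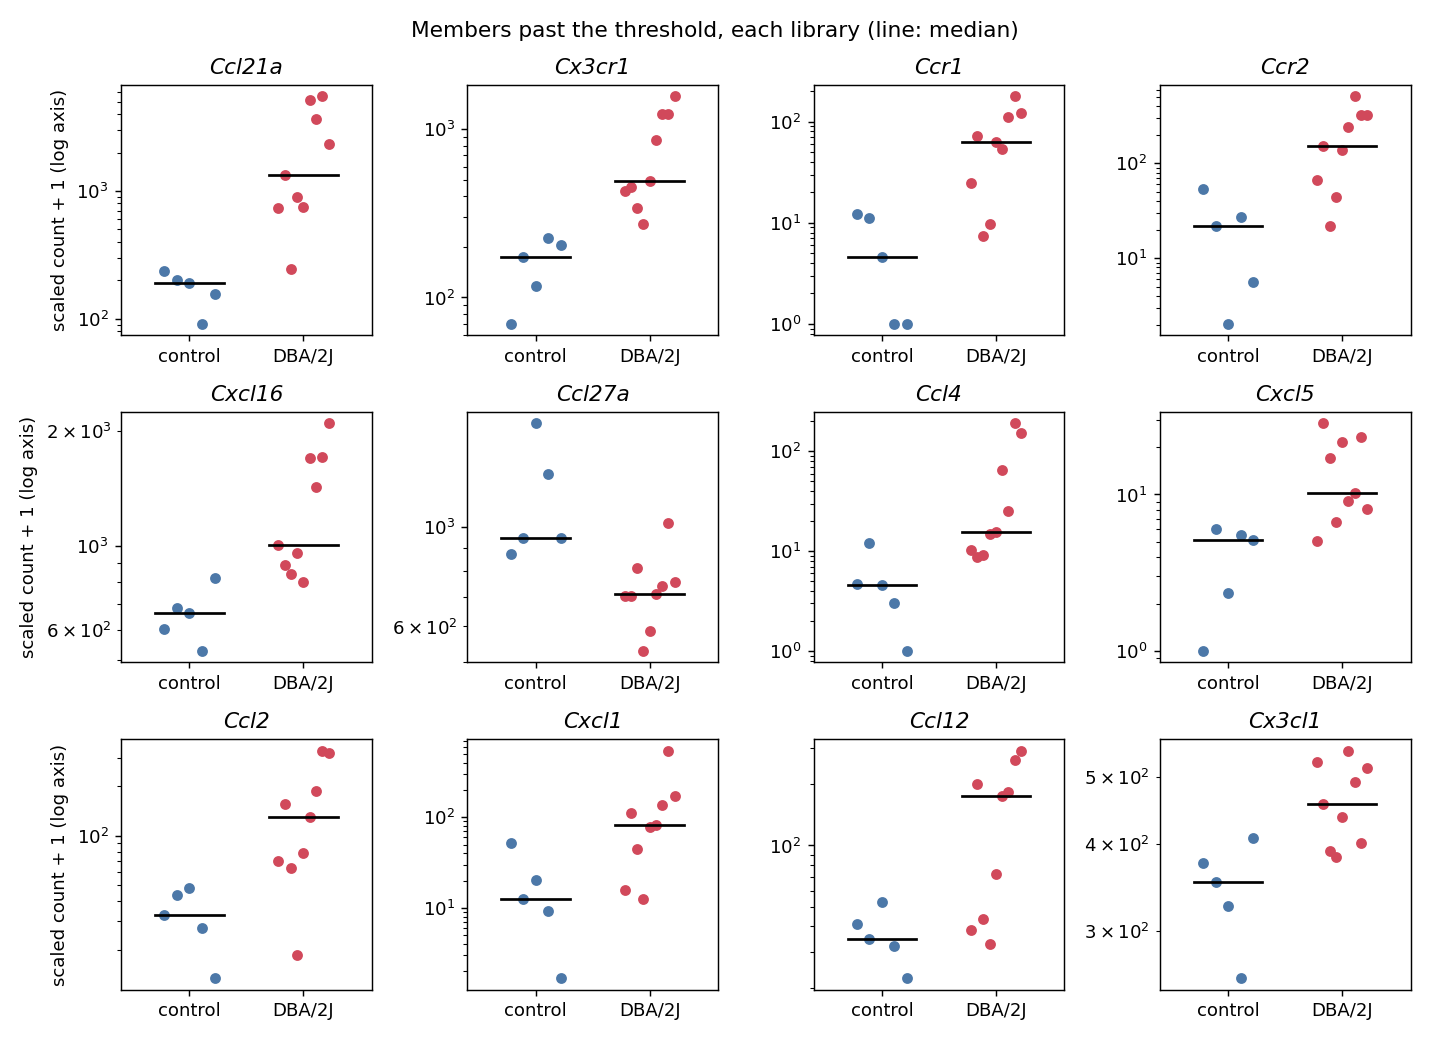
Scaled count + 1 on a log axis for the 12 members past the threshold, with 1 point per library in order of sample number from left to right, 5 control and 9 DBA/2J, and a line at the median. Ccl21a and Cx3cr1 show no overlap, while Ccl12 has DBA/2J samples 1, 3 and 4 inside the control range.

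Cxcl1, Cxcl2 and Cxcl5 attract neutrophils through CXCR2 and lie together on chromosome 5. Cxcl1 (90891241 to 90893115) stood at 50.8, 11.6, 19.1, 8.21 and 0.676 scaled counts in controls and at 11.5, a median of 80.2 and 542 in DBA/2J, sample 8 being highest. Of the DBA/2J libraries, 6 were above every control, and samples 1, 3 and 4 were below control sample 1. Cxcl1 rose by 2.71 (SE 0.82, adjusted p = 0.0285), and the call was lost without control sample 4 or 5 (adjusted p up to 0.0839). Cxcl5 (90759360 to 90761624) was at 0, 5.05, 1.34, 4.51 and 4.11 in controls and at 4.06, a median of 9.25 and 27.4 in DBA/2J, so few reads lay behind it in any library, and sample 1 alone lay within the control range. It rose by 1.89 (SE 0.54, adjusted p = 0.0209) and was not past the threshold without control sample 1 or 3 (adjusted p up to 0.058). Cxcl2, whose promoter shares the kappaB letters of Cxcl1, lay between 0 and 10.1 in controls and between 0 and 162 in DBA/2J. In 8 of 9 DBA/2J libraries Cxcl2 was above every control, and sample 4 was at 0 beside a median of 18.3; it did not pass.

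Cxcl9, Cxcl10 and Cxcl11 are induced by interferon and act on CXCR3 of T cells and natural killer cells. Cxcl11 stood at 75.3, 54.9, 20.9, 94.5 and 11.9 in controls and at 23.8, a median of 128 and 331 in DBA/2J (log2 fold change 1.37, SE 0.58, adjusted p = 0.105, limma). The groups overlapped, with 5 DBA/2J libraries above every control, and Cxcl11 passed as higher without DBA/2J sample 2 (1.63, adjusted p = 0.0379). Cxcl10 lay between 1.17 and 48.3 in controls and between 9.84 and 189 in DBA/2J, and Cxcl9 between 0 and 13.7 and between 0.937 and 137, where sample 9 alone exceeded the controls.

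CXCL16 and CX3CL1 are made as membrane proteins that hold leukocytes directly and are shed by ADAM10 and ADAM17. Cxcl16 stood at 602, 685, 663, 526.3 and 822 in controls and at 801, a median of 1003 and 2097 in DBA/2J, with 8 of 9 libraries above every control. Cxcl16 (chromosome 11, 70453983 to 70459984) rose by 0.87 (SE 0.23, adjusted p = 0.0132) and passed whichever library was removed (adjusted p up to 0.0419). It did not pass with the leukocyte covariate (0.33, adjusted p = 0.244) or with controls 4 and 5 alone (0.86, adjusted p = 0.13). It overlaps Zmynd15 on the opposite strand, which was also higher (means 64.9 and 159, adjusted p = 0.00215). Cx3cl1, fractalkine, stood at 374, 352, 324, 255 and 408 in controls and at 382, a median of 456 and 545 in DBA/2J. Its change was the smallest that passed, 0.43 on the log2 scale (SE 0.15, adjusted p = 0.0481), and it did not pass in 9 of 14 fits with 1 library removed (adjusted p up to 0.138), those without control samples 2, 3 and 4 and DBA/2J samples 1, 2, 5, 6, 7 and 9. With the dependence on length and GC taken out it was 0.23 (adjusted p = 0.291).

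Of the other CXC ligands, Cxcl12 and Cxcl14 were abundant, and neither they nor Cxcl13 passed. Cxcl12, which acts on CXCR4, stood at 1157, 1088, 1617, 1298 and 1734 in controls and at 813, a median of 1546 and 3290 in DBA/2J (log2 fold change 0.16, SE 0.27, adjusted p = 0.717). Cxcl14 was at 848, 1068, 1448, 575 and 1066 in controls and at 775, a median of 944 and 1273 in DBA/2J. Its log2 fold change was -0.01 (SE 0.19, adjusted p = 0.974), and no DBA/2J library was above the highest control. Cxcl13, a B cell attractant, lay between 31.1 and 95.8 in controls and between 12 and 431 in DBA/2J, sample 9 being highest.

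Among the receptors, Ccr2, the monocyte receptor of CCL2, CCL7 and CCL12, stood at 52.4, 21.1, 1.03, 26.3 and 4.65 in controls. DBA/2J ran from 20.8 (sample 3) over a median of 153 to 509 (sample 7), and 7 of 9 libraries were above every control. Ccr2 (chromosome 9, 124101950 to 124113557) rose by 3.41 (SE 0.78, adjusted p = 0.00658), and with the leukocyte covariate it was 1.90 and did not pass (adjusted p = 0.102). DBA/2J samples 3 and 4 lay within the control range. Ccr1 lies nearby (123962124 to 123968692, reverse strand) and stood at 11.2, 10.1, 3.64, 0 and 0 in controls, with 6.46, a median of 62.5 and 177 in DBA/2J. It had a log2 fold change of 3.69 (SE 0.81, adjusted p = 0.00536), and DBA/2J samples 3 and 4 lay below the highest control. Since 2 controls were at 0, that value depended on the pseudocount and was 5.07 with 0.1 and 2.60 with 5, both past the threshold. With the leukocyte covariate Ccr1 did not pass (1.90, adjusted p = 0.0834). Ccr1 and Ccr2 both passed whichever library was removed (adjusted p up to 0.0258 for Ccr2 and 0.0204 for Ccr1).

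Cx3cr1, the fractalkine receptor of microglia and patrolling monocytes, stood at 68.6, 172, 116, 224 and 205 in controls. DBA/2J ran from 274 (sample 4) over a median of 490 to 1569 (sample 9), so the groups did not overlap. Cx3cr1 rose by 2.14 (SE 0.40, adjusted p = 0.00228, limma) and passed whichever library was removed (adjusted p up to 0.009). The leukocyte covariate brought the value to 1.26 (adjusted p = 0.0242). Of 8 microglial markers none passed, with sums of 1331 to 1928 in controls and 1498 to 5615 in DBA/2J. In GENCODE M21 the gene spans 119901616 to 120069879 on the reverse strand of chromosome 9 and overlaps other genes. These include Csrnp1 and Wdr48, which were also higher (adjusted p = 0.00552 and 0.00413). The overlap is of gene bounds, introns included, and whether these genes share exon sequence or reads was not tested.

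Of the receptors that did not pass, Ccr7 was at 24.2, 0, 30.3, 0 and 0 in controls and at 6.91, a median of 18.4 and 449 in DBA/2J, sample 9 being highest (log2 fold change 2.80, SE 1.02, adjusted p = 0.0634, limma). Ccr7 passed as higher without control sample 1 or 3 (adjusted p = 0.0257 and 0.0328). Cxcr2, the neutrophil receptor of CXCL1, stood at 48.7, 78.6, 71.4, 104 and 46.4 in controls and at 12.6, a median of 51.5 and 373 in DBA/2J (-0.06, SE 0.56, adjusted p = 0.956). DBA/2J samples 7 and 8 (166 and 373) were above every control and samples 1, 4, 5 and 6 were below every control. Cxcr6, the receptor of CXCL16, was at 0.933, 8.26, 12.1, 57.1 and 52.1 in controls and at 2.65, a median of 12.9 and 67.5 in DBA/2J (0.39, SE 0.78, adjusted p = 0.772). Cxcr6 overlaps Fyco1 on the opposite strand, a gene with means of 4579 and 4881. Cxcr3 was at 0 in 4 of 5 controls and at 11 in the other, and between 0.808 and 166 in DBA/2J. Cxcr4 lay between 9.62 and 19.4 in controls and between 2.8 and 48.5 in DBA/2J.

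No atypical receptor passed. Ackr1 was the most abundant of them per kilobase, with means of 477 and 1438 scaled counts per kilobase in control and DBA/2J. It stood at 301, 534, 761, 682 and 473 scaled counts in controls and at 259, a median of 586 and 7689 in DBA/2J. Samples 6 to 9 (1223, 3106, 7689 and 1016) were above every control, while sample 4 (259) was below every control and the others lay within the control range, and the log2 fold change was 0.67 (SE 0.64, adjusted p = 0.512, limma). Ackr3, which removes CXCL12, stood at 402, 303, 319, 200 and 359 in controls and at 171, a median of 221 and 1183 in DBA/2J (-0.03, SE 0.40, adjusted p = 0.97). Ackr4, which removes CCL19 and CCL21, was at 38, 75.7, 23.5, 58.1 and 95.7 in controls and at 38.6, a median of 59.8 and 309 in DBA/2J (0.41, SE 0.43, adjusted p = 0.558). Sample 5 was the highest DBA/2J library for both Ackr3 and Ackr4. Ackr2, which removes inflammatory CC ligands, lay between 0 and 33.1 in controls and between 0 and 35.5 in DBA/2J.

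**Figure D3:**
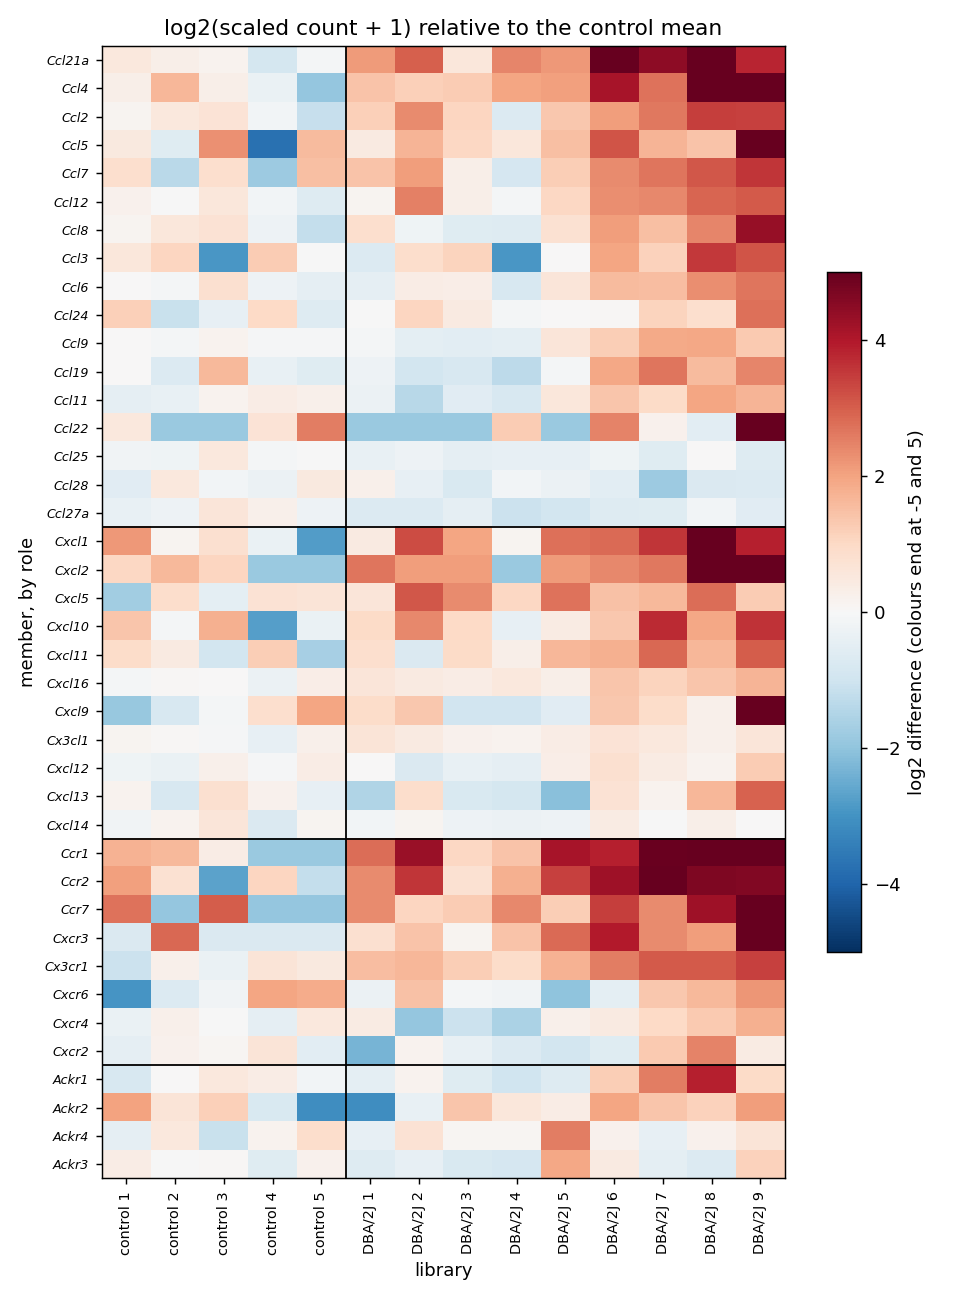
Log2 of the scaled count + 1 of each member in each library minus the mean of the 5 controls, with red for higher and blue for lower and black lines between roles and groups. DBA/2J samples 6 to 9 carry most of the dark red, and samples 3 and 4 are near the controls for most ligands.

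DBA/2J veins differed widely among themselves. The number of members above the highest control was 9, 14, 6, 5, 17, 26, 24, 24 and 34 of 40 in DBA/2J samples 1 to 9. Samples 8 and 9 were the highest of the 9 DBA/2J libraries for 31 members, 12 in sample 8 and 19 in sample 9, and for 8 of the 11 that rose. Such counts by library were not made over all genes, so whether they are particular to the members was not tested. The 12 members highest in sample 8 were Ccl2, Ccl3, Ccl4, Ccl9, Ccl11, Ccl21a, Ccl25, Ccl27a, Cxcl1, Ccr1, Cxcr2 and Ackr1. Neutrophil markers summed to 2480 in sample 8, against 62.7 to 440 in controls and 40.3 to 1126 in the other DBA/2J libraries. Most of that sum was S100a8 (551), S100a9 (1174) and Csf3r (623), while Ly6g (4.36) and Camp (1.64) were within the control range and Ngp was at 0. Sample 9 held the highest Ccl5 (462), Ccl22 (276), Cxcl9 (137), Cxcl13 (431), Ccr7 (449) and Cxcr3 (166), genes picked out after their values were seen. T and natural killer cell markers summed to 1051 in sample 9, against 28.8 to 112 in controls and 42.6 to 209 in the other DBA/2J libraries. B cell markers summed to 852 there and to 27.9 to 295 in controls. The part of these cells in the values was not tested. Leukocyte sums were 2199, 2156, 1569 and 1450 in DBA/2J samples 1 to 4, all within or below the control range, and 4898 to 11415 in samples 6 to 9. Sample 5 had 17 members above the highest control with a leukocyte sum of 3122, inside the control range. Vessel markers were also high in samples 6 to 9: pan-endothelial sums were 30889 to 59055 there, against at most 29216 in controls, and venous sums 15969 to 21486, against at most 11366. Pericyte sums were 8458 to 17741 in these libraries and 3568 to 8371 in controls. The part of vessel content in the members' values was not tested.

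**Figure D4:**
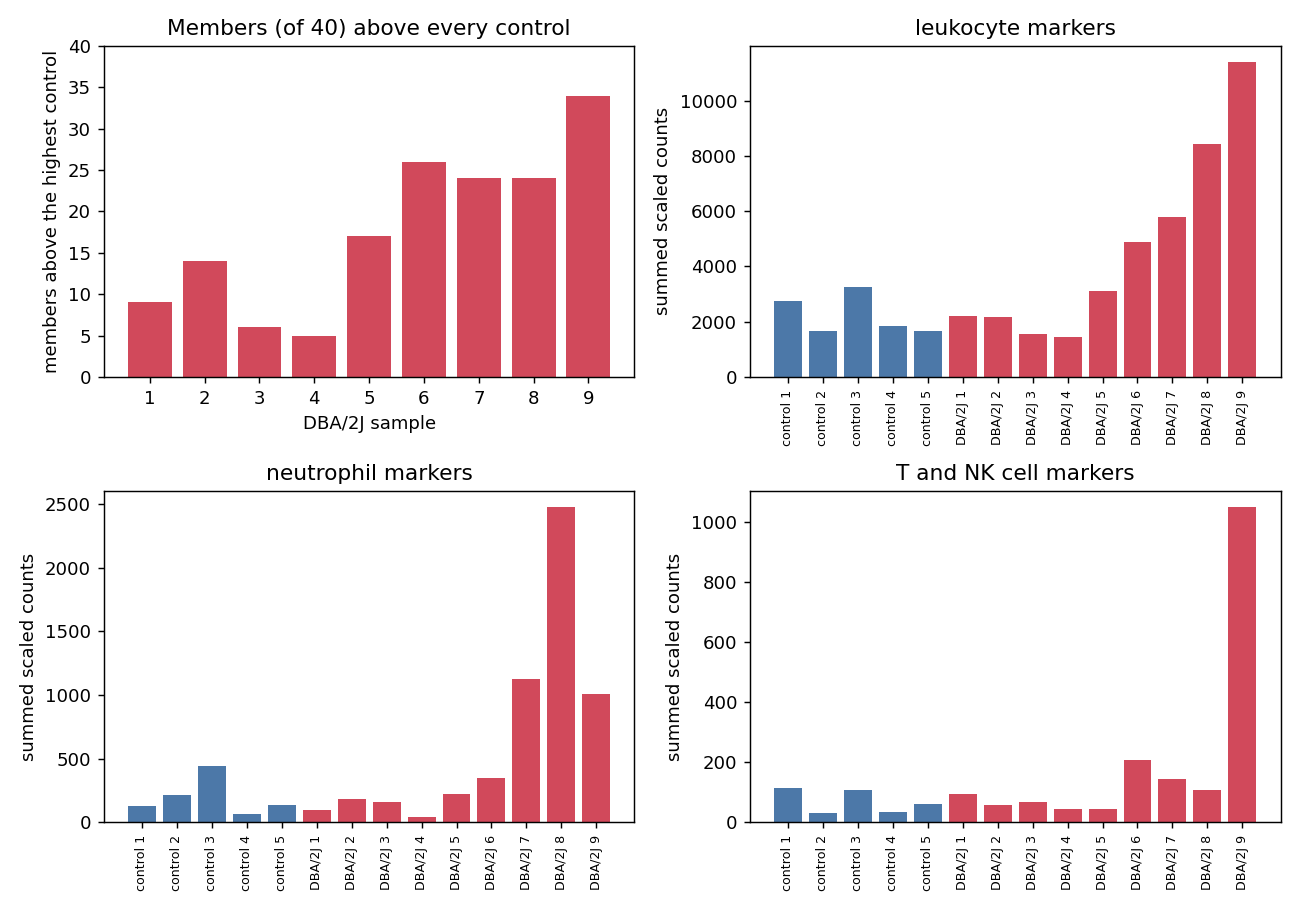
Upper left, the number of the 40 members above the highest control in each DBA/2J sample, from 5 in sample 4 to 34 in sample 9, without a like count over all genes. The other panels give summed scaled counts of leukocyte, neutrophil and T and NK cell markers in each control (blue) and DBA/2J (red) library, with neutrophil markers highest in sample 8 and T and NK cell markers in sample 9.

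Genes that act with the members were read in the same fit, from lists chosen with earlier results of these data known. Over all genes tested 12.1% were higher and 7.2% lower, and over coding genes 17.9% and 7.81%. Of 34 genes of receptor signalling, 10 (29.4%) were higher and 1 (2.94%) was lower (median log2 fold change 0.657). They included Jak2, a cytokine receptor kinase, which was at 465 ± 168 (SD, n = 5) in controls and 1412 ± 295 (SD, n = 9) in DBA/2J and rose by 1.64 (SE 0.20, adjusted p = 0.000137, limma). Pik3r5 and Pik3cg, subunits of the lipid kinase that G proteins activate in leukocytes, rose by 1.37 (adjusted p = 0.00341) and 1.68 (adjusted p = 0.031). Pik3cg did not pass in 5 of 14 fits with 1 library removed (adjusted p up to 0.0896). Rgs16, which switches off G protein signalling, rose by 0.90 (adjusted p = 0.0107). Rasgrp2, an activator of integrin signalling in platelets, was named after its value was seen, as the gene of this list that fell (by 0.60, adjusted p = 0.0384).

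Of 18 genes for shedding, cleavage and surface presentation of chemokines, 9 (50%) were higher and none lower (median log2 fold change 0.589). The shares higher were 12.1% over all genes tested and 17.9% over coding genes. Ndst1, which sulfates heparan sulfate, was at 1055 ± 252 (SD, n = 5) and 2304 ± 474 (SD, n = 9) and rose by 1.13 (SE 0.18, adjusted p = 0.000808, limma). The heparan sulfate carrier Sdc3 rose by 1.09 (adjusted p = 0.0016) and the sulfotransferase Hs6st1 by 0.73 (adjusted p = 0.00763). Adam17 rose by 0.94 (adjusted p = 0.00786) and Adam10, named after its value was seen, by 0.92 (adjusted p = 0.00949). Of the 16 testable chemokine and receptor genes outside the 40, 1 was higher, Cxcr5, the CXCL13 receptor of B cells. It was listed at 0 in all 5 controls and had a median of 4.35 in DBA/2J (adjusted p = 0.032), and did not pass in 6 of 14 fits with 1 library removed (adjusted p up to 0.0691).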

How the data were processed

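RNA was measured in 14 libraries of retinal vein, 5 control and 9 DBA/2J, grouped by their titles. From each, around 100 pg of total RNA (RIN over 9) went through SMART-Seq v4 amplification and Nextera XT, per the series design text. The deposited signal values are, from their steps, estimated counts per gene symbol divided by a factor per library by the authors. The sources used here do not say how that factor was made. The design text names kallisto with GRCm38 and GENCODE M23, and the submitters' processing notes name kallisto, sleuth and GRCm39. Between 18.8% and 22% of values were whole reads (tolerance 0.01), so no count model was run, and limma took the place of the count test the design named for estimated counts.

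The table had 40149 rows, of which 26 carried a date in place of a symbol and were dropped (at most 0.201% of a library). Coordinates, length and GC content came from GENCODE M21 (GRCm38), where 39019 symbols matched. A gene was tested if 5 or more libraries reached a value of 1. The test was limma 3.58.1 with a trend (R 4.3.3), two-sided, on log2(value + 1), fitting group alone, Benjamini-Hochberg threshold 0.05. This scale understates changes of low genes. Values per kilobase use the longest M21 transcript. A library is 1 mouse, and p-values therefore reflect how libraries differ. Within that spread, differences between mice, in dissected tissue and in amplification cannot be told apart. Totals ran from 14806322 to 22159797 scaled counts, and depth was estimated from the most frequent value above 0, taken as 1 read. Without molecular identifiers, depth bears on counting error alone.

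In simulated data for this comparison (29817 genes tested), 44% of 100 genes changed 2-fold and 74% of 100 changed 4-fold passed, and 6.35% of the genes called had not been changed. The changed genes left out those of low mean value. Spread was taken from the DBA/2J libraries for both groups, and genes varied independently. These rates therefore do not carry over to low members or to shifts that many genes share. The members and lists were chosen with earlier results of these data known. Named in full were members past the threshold, the 3 most abundant others of each role, Gpnmb and up to 4 genes of each further list. Within each group, every pair of libraries differed by more than sampling noise. Alternatives were other scalings and filters, a pseudocount of 0.1 or 5, a length and GC trend (splines of 5 degrees of freedom), library weights, 3 covariates, subsets of the controls and removal of single libraries.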

Additional observations from a re-analysis of the deposited data

Results flagged for a closer look

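Among 80 groups (40 members in 5 control and in 9 DBA/2J libraries), 7 held a library that stood apart from the others on the log2 scale. Chance gives about 1 in 20 for normally distributed values, and groups that hold zeros need not follow that rate. In DBA/2J, sample 9 stood above the others for Ccl24 (22.9, the next 6.6) and for Cxcl9 (137.1, the next 8.54). Sample 5 stood above them for Ackr4 (309.2, the next 85.7). Sample 7 stood below them for Ccl28 (3.404, the next 8.3), sample 4 for Cxcl2 (0, the next 14.5) and sample 1 for Ackr2 (0, the next 5.55). Samples 1 and 4 were the shallowest libraries, and the part of depth in these zeros was not tested. In controls, Cxcr3 was at 10.98 in sample 2 and at 0 in the other libraries, a pattern that the rule always flags.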

How the results depend on the processing

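Of the members, 11 were higher and 1 lower as reported. Leaving out each library in turn gave 7 to 13 higher and 0 to 1 lower, and over all genes 2286 to 3985 higher and 1235 to 2335 lower. The lowest counts of higher members, 7, came without control sample 4 or 5, no member was lower without control sample 3 or 4, and the lowest counts over all genes came without control sample 3. Members higher and lower numbered 3 and 2 with the leukocyte covariate, 0 and 0 with the lens mean, 6 and 1 with Xist, 5 and 0 with controls 1 to 3 only and 6 and 0 with controls 4 and 5 only. They numbered 10 and 2 after quantile normalization, 13 and 0 with scaling to library totals and 10 and 0 after removal of the length and GC trend. Without the 2 shallowest libraries, an alternative added after the data were seen, 13 were higher and 1 lower. Of 28465 genes tested there, 2892 were higher and 1520 lower, against 3518 and 2101 of 29166 as reported. Over all genes the counts of higher and lower were 2694 and 2518 with the leukocyte covariate, 2639 and 1909 with Xist, 2740 and 2868 after quantile normalization and 5422 and 1307 with scaling to library totals, which moved the median log2 fold change from 0.0472 to 0.194. They were 1594 and 2171 after removal of the length and GC trend, 2 and 10 with the lens mean, 1684 and 734 with controls 4 and 5 only, and 2369 and 1372 with controls 1 to 3 only. Higher genes made up 62.6% of calls as reported, 48.9% after quantile normalization, 80.6% with own totals, 42.3% without the length and GC trend, 51.7% with the leukocyte mean and 16.7% with the lens mean. The cause was not tested.

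Sample numbers did not pair the libraries: the correlation of deviations between libraries of the same number ran from -0.0824 to 0.0154 over 5 numbers, and no library was most like its own number. With the replicate block 4 members were higher (Ccl21a, Ccr1, Ccr2 and Cx3cr1) and 1 lower, and 1408 and 1057 of all genes.

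No member past the threshold changed direction under any alternative run. Among named members that did not pass, the log2 fold change changed sign as follows. With the leukocyte mean it was -0.786 for Ackr1, -1.18 for Ccl19, -0.629 for Ccl8, -0.425 for Cxcl12 and -0.146 for Cxcr6. The lens mean gave -0.052 for Ackr1, 0.25 for Ackr3, -0.00331 for Ccl19, 0.043 for Cxcl14 and -0.848 for Cxcr6. Xist gave -0.14 for Ccl19. Under the replicate block it was -0.525 for Ackr1, -0.668 for Ccl19, -0.24 for Cxcl12 and -0.231 for Cxcr6. Own totals gave 0.143 for Ackr3, 0.161 for Cxcl14 and 0.111 for Cxcr2. Controls 4 and 5 alone gave 0.172 for Ackr3, -0.105 for Ackr4, 0.278 for Cxcl14 and -1.51 for Cxcr6. The length and GC trend gave -0.322 for Cxcl12 and 0.0518 for Cxcl14, and library weights 0.0011 for Cxcl14 and 0.0514 for Cxcr2. Without the 2 shallowest libraries it was 0.176 for Ackr3, 0.0456 for Cxcl14 and 0.355 for Cxcr2. Over the leave-outs it ran from -0.275 to 0.0725 for Ackr3, from -0.196 to 0.137 for Cxcl14, from -0.375 to 0.223 for Cxcr2 and from -0.342 to 0.886 for Cxcr6.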
